A study of Mus musculus with 4 samples.

Results

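The genes described here are 47 macrophage genes, read in RNA from mouse cells that had been sorted as otic. They were chosen by symbol as pan-macrophage markers (35 genes), perivascular-type markers (9 genes) and microglia-type markers (3 genes). The choice was made with earlier results of these data known. All 47 were matched among 52636 counted identifiers, and 45 passed the filter on low counts, which left 16557 genes to test. Fcgr2b and Folr2 did not pass it. The series held 4 libraries, 2 labelled Control and 2 labelled Brg1cKO, a conditional knockout of Brg1, the ATPase of a chromatin remodelling complex that is encoded by Smarca4. The study asked what Brg1 does for Sox2 and for neurosensory fate in the otic ectoderm, from which the inner ear forms. Each library was made from 3000 sorted cells with a strand-specific, random-primed kit and was sequenced from 1 end over 75 bp. The Cre driver, the deleted exons, the strain, the embryonic age and the marker used for sorting were not given in the sources used. Whether the 2 libraries of a group stem from different litters, embryos or sorts is also unstated, so p-values measure only how far these libraries differ, which may be technical.

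Macrophages of the embryo arise first from the yolk sac and spread through the body with the early circulation. The growth factor receptor CSF1R keeps them alive, and the transcription factor PU.1, encoded by Spi1, sets much of their gene expression. Those of the nervous system include microglia, within the neural tissue, and perivascular or border macrophages, along vessels and membranes. Microglia keep genes such as Cx3cr1, P2ry12 and Trem2 high, while perivascular macrophages are known for Mrc1, Lyve1, F13a1 and Pf4. The embryonic ear region, its mesenchyme and its vessels also hold macrophages that clear dying cells.

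Reads assigned to genes numbered 15357265 and 19132360 in control replicates 1 and 2, and 29361382 and 25875555 in Brg1cKO replicates 1 and 2. Records assigned to genes made up 48.2% and 49.3% in control against 64.0% and 63.7% in Brg1cKO libraries, so depth and assignment both moved with the group. Genes with at least 1 read numbered 17266 and 17086 against 20859 and 20902. A count of 0 allowed up to 3 reads, or 0.195 and 0.159 CPM (read counts scaled to the library total) in control against 0.102 and 0.116 CPM in Brg1cKO libraries, for counting error only. Smarca4 was read at 816 and 815 CPM in control against 891 and 848 CPM in Brg1cKO libraries. Its whole-gene count does not check the genotype, because the deleted part is not known. The summed CPM of 14 otic epithelium genes, such as Oc90 and Epcam, was 1569 and 1892 in control against 322 and 313 in Brg1cKO libraries. Endothelial genes such as Cdh5 and Kdr were abundant in all 4 libraries, with summed levels of 3146 to 3776 CPM over 14 genes, so transcripts of other cell types were present in both groups.

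Macrophage transcripts were more abundant in the Brg1cKO libraries. Summed over the 47 genes, scaled CPM was 1721 and 1638 in control against 4546 and 4395 in Brg1cKO libraries, a ratio of 2.66. Of the 45 genes tested, 44 had a positive log2 fold change and 1, Timd4, a negative one. Their median log2 fold change was 1.76, with quartiles of 1.22 and 2.62, beside a median of 0.03 over all genes tested. In bulk RNA, more macrophages in the sort and more of these transcripts per macrophage cannot be told apart.

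Against an adjusted p of 0.05, edgeR's quasi-likelihood test called 1 of the 45, the mannose receptor gene Mrc1. Over all genes tested it called 5, or 0.0302%, and 0.0121% as higher in Brg1cKO. At an unadjusted p under 0.05, 26 of the 45 were higher and 0 were lower, where 7.66% of all genes tested were higher and 4.80% were lower. In 39 of the 45, both Brg1cKO libraries lay above both controls, as did 26.3% of all genes tested, and in the other 6 the groups overlapped. DESeq2 called 26 of the 45, all as higher, where it called 8.33% of all genes tested as higher. The members were chosen with earlier results of these data known, so the shares over all genes describe the counts and test nothing. Csf2rb and Cd14 had no control read and passed the filter only through the Brg1cKO libraries, so they could only come out higher. The count of calls depended on single libraries. Without control replicate 1 or control replicate 2, edgeR called 32 and 31 members, with 17.6% and 16.9% of all genes tested called. Without Brg1cKO replicate 1 or Brg1cKO replicate 2 it called 4 members each time, with 0.237% and 0.173% of all genes called. Mrc1 was called in each of these 4 fits. In such a fit the lone library of a group is assumed to vary like the other group.

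**Figure D1:**
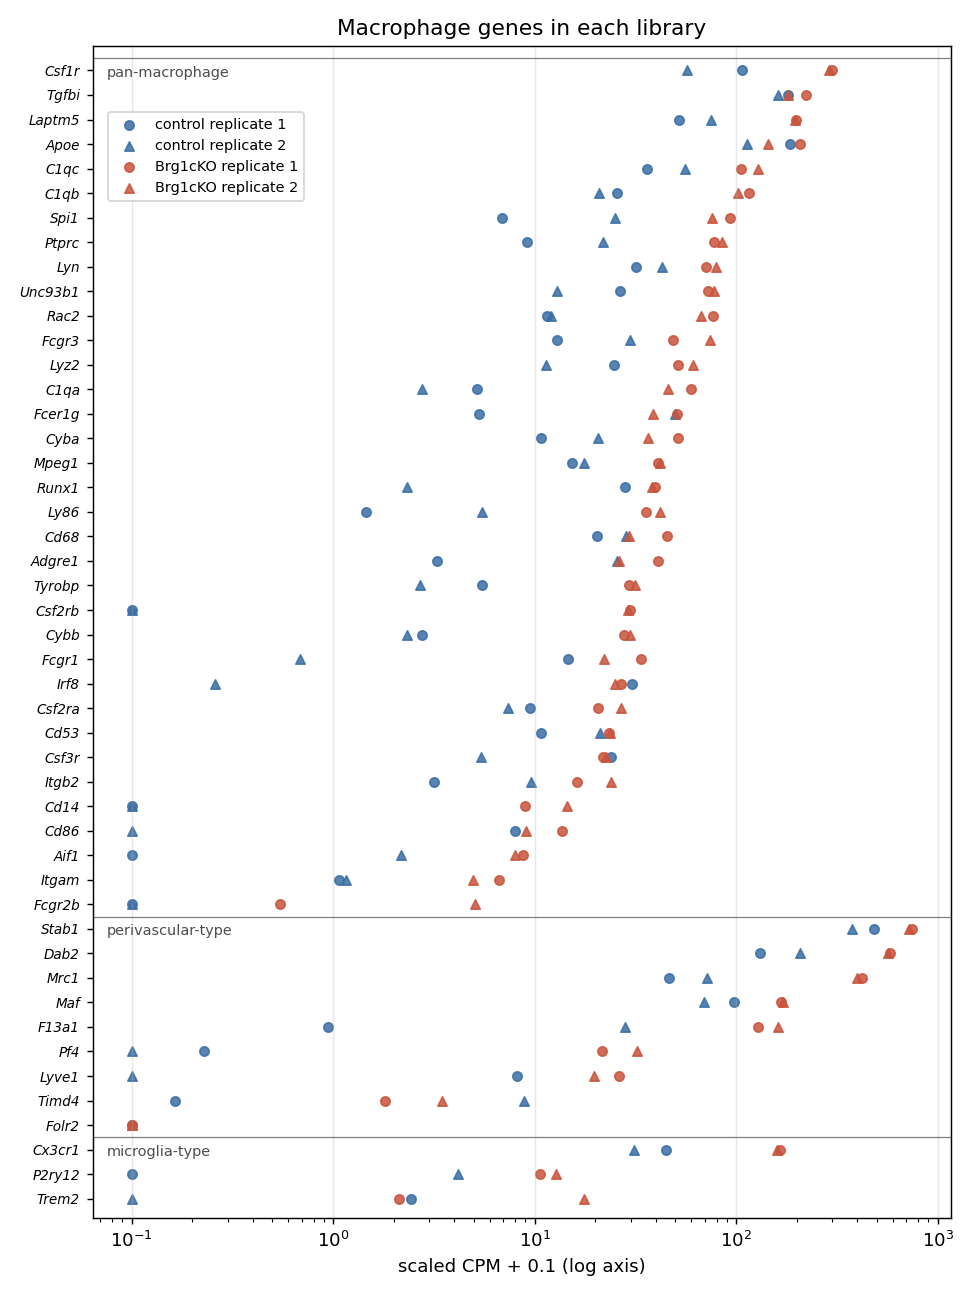
Scaled CPM + 0.1 on a log axis for each of the 47 macrophage genes (rows) in the 4 libraries (blue, control; red, Brg1cKO; circles, replicate 1; triangles, replicate 2), by marker type and by level in Brg1cKO. The red points lie to the right of both blue points in 39 of the 45 genes tested, and the blue points are spread more widely than the red.

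All 3 marker types were higher in the Brg1cKO libraries, and their differences from each other were not tested. Pan-macrophage members summed to 905 and 841 CPM in control against 2272 and 2132 CPM in Brg1cKO libraries, a ratio of 2.52. Of the 34 tested, 34 had a positive fold change, 19 were higher at an unadjusted p under 0.05, and the median log2 fold change was 1.64. Perivascular-type members summed to 770 and 762 CPM against 2097 and 2074 CPM, a ratio of 2.72. Of the 8 tested, 7 had a positive fold change, 6 were higher at an unadjusted p under 0.05, and the median was 2.14. Microglia-type members summed to 46.97 and 35.2 CPM against 177 and 189 CPM, a ratio of 4.46. All 3 had a positive fold change, 1 was higher at an unadjusted p under 0.05, and the median was 2.50. The order of these medians was not kept when 1 library was left out. Without control replicate 1, the perivascular-type median (1.92) lay below the pan-macrophage median (2.07). It lay above the microglia-type median without control replicate 2 (2.62 against 2.04) and without Brg1cKO replicate 2 (2.25 against 2.13).

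The share of each marker type in the summed CPM of the members depended on which members were counted. Over all 47, perivascular-type genes held 44.7% and 46.5% of the summed CPM in control against 46.1% and 47.2% in Brg1cKO libraries, so the groups overlapped. Pan-macrophage genes held 52.6% and 51.3% against 49.97% and 48.5%, and microglia-type genes 2.73% and 2.15% against 3.90% and 4.30%, with no overlap in either. Without Apoe and Mrc1, the perivascular-type share was lower in Brg1cKO, at 48.5% and 47.5% against 42.7% and 43.5%. Stab1, which endothelium also makes, gave 485 and 376 CPM of the perivascular-type sum in control against 743 and 724 CPM in Brg1cKO libraries.

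For 18 of the 47 members, other cells of the embryo were marked as making the transcript, such as endothelium for Stab1 and Lyve1 and megakaryocytes for Pf4 and F13a1. The 29 left unmarked summed to 456 and 458 CPM in control against 1821 and 1798 CPM in Brg1cKO libraries, a ratio of 3.96, and the 18 marked had a ratio of 2.18. Of the 27 tested among the 29, 16 were higher at an unadjusted p under 0.05, with a median of 1.87. Of the 18 marked, 10 were, with a median of 1.57. Among the 29, the perivascular-type share was higher in Brg1cKO, at 10.2% and 17.6% against 23.4% and 22.2%, and the pan-macrophage share lower, at 79.6% and 75.6% against 67.5% and 67.9%. The microglia-type share overlapped, at 10.3% and 6.80% against 9.16% and 9.81%. Mrc1 was left unmarked although some endothelium makes it, and it held nearly all of the perivascular-type sum of the 29. Without it, the 28 others summed to 410 and 387 CPM against 1397 and 1402 CPM, a ratio of 3.51. Of that sum, pan-macrophage genes held 88.5% and 89.7% against 87.9% and 87.2%, and only Timd4 and Folr2 stood for the perivascular type. Microglia-type genes held 11.5% and 8.06% against 11.9% and 12.6%, higher in Brg1cKO with no overlap. These shares therefore gave no single order of the marker types.

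**Figure D2:**
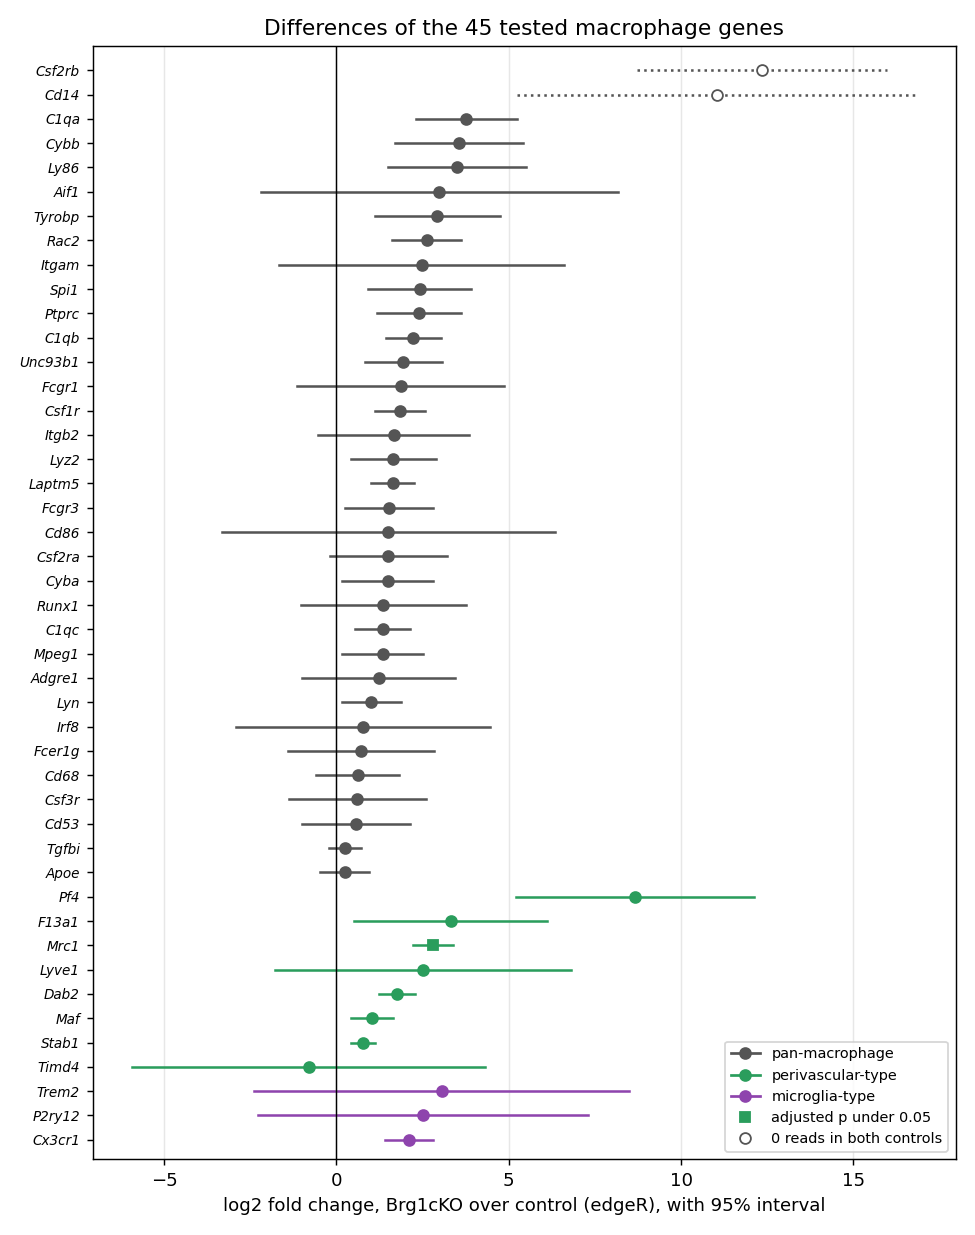
Log2 fold change of Brg1cKO over control with its 95% confidence interval (edgeR) for the macrophage genes tested, ordered within each marker type. All values but that of Timd4 lie above 0, and the widest intervals belong to genes with few or uneven control reads.

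PU.1 binds purine-rich DNA, often around the letters GAGGAA or GGAAGT, so promoters were searched for these letters on both strands. The windows ran from 250 bases before to 50 bases after a gene's start and came from RefSeq on GRCm38.p6. They were available for 33 of the 47 members in 42 windows, and were not in the table for Csf2rb, Spi1, Itgb2, Lyn, Cd86, Rac2, Tyrobp, Unc93b1, Cd14, Maf, Adgre1, Csf1r, Lyve1 and C1qa. GAGGAA stood in a window of 21 of the 33 (63.6%), against 31.2% of 27025 genes with a window. GGAAGT stood in 15 of the 33 (45.5%), against 26.6% of all. The longer AGGAAGT, which overlaps both, stood in 11 (33.3%), against 10.7% of all. GAGGAAGT, which contains all of these, stood in 4 (C1qc, Cd53, F13a1 and Pf4, or 12.1%), against 3.69% of all. These are matches of letters, and no binding was measured. The stretches just upstream of 5 members are shown because they cover the called perivascular-type gene Mrc1, 3 others of that type and a C1q chain. Each is written 5′ to 3′ on the gene's strand, ends at or before the annotated start, and has GAGGAA or GGAAGT on either strand in capitals.
Mrc1, chr2:14229329-14229391, plus strand: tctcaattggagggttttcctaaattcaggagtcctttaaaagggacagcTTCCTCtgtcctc
Stab1, chr14:31168642-31168721, minus strand: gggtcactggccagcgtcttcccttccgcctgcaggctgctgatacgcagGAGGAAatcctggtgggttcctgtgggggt
F13a1, chr13:37050261-37050360, minus strand: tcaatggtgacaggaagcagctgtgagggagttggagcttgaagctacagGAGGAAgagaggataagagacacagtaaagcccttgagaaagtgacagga
Pf4, chr5:90772377-90772434, plus strand: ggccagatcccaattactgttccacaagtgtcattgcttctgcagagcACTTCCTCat
C1qc, chr4:136893066-136893157, minus strand: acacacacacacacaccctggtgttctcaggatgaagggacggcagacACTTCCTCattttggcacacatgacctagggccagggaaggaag
The capitals open 35 bases before the RefSeq start of Mrc1, 30 before that of Stab1, and 66 before that of F13a1. In Pf4 and C1qc the 2 sets of letters overlap on the opposite strand. The stretch of F13a1 holds GAGGAA alone, and the GAGGAAGT counted for that gene lies outside it.

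Mrc1 encodes the mannose receptor CD206, an endocytic receptor of perivascular and other resident macrophages that some lymphatic and sinusoidal endothelium also makes. It lies at chr2:14229392-14332057 (ENSMUSG00000026712). Its level was 46.3 and 71.7 CPM in control against 424 and 397 CPM in Brg1cKO libraries. The groups stood far apart, and the replicates lay closer to each other than to the other group. The log2 fold change was 2.80 ± 0.25 (SE) with a 95% confidence interval from 2.21 to 3.38 (edgeR adjusted p = 0.0371). It was the smallest p among the macrophage genes. Mrc1 was also called in all 11 other settings tried, with adjusted p from 2.93e-34 to 0.0353.

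Stab1 and Dab2 had the highest mean levels of the perivascular-type genes in CPM per kilobase of exon, in both groups. Stab1 encodes stabilin-1, a scavenger receptor of resident macrophages and of sinusoidal endothelium. It was read at 485 and 376 CPM in control against 743 and 724 CPM in Brg1cKO libraries. The log2 fold change of 0.77 ± 0.15 was smaller than the median of the marker type and did not pass (edgeR adjusted p = 0.169). Dab2 encodes an endocytic adaptor that is found in macrophages and in several epithelia. It was read at 131 and 208 CPM against 584 and 566 CPM. Its log2 fold change was 1.76 ± 0.23, with the smallest p after Mrc1 (edgeR adjusted p = 0.0840). It was called in 8 of the 11 other settings.

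Maf, F13a1 and Lyve1 were each higher in both Brg1cKO libraries than in either control. Maf encodes c-MAF, a transcription factor of perivascular macrophages that mesenchyme and epithelia also use, and was read at 97.3 and 69.5 CPM against 168 and 172 CPM (log2 fold change 1.03 ± 0.26, edgeR adjusted p = 0.286). F13a1 encodes the A subunit of coagulation factor XIII, and was read at 0.845 and 28.0 CPM in control against 129 and 161 CPM in Brg1cKO libraries. The controls differed widely from each other, and the log2 fold change of 3.32 ± 1.19 did not pass (edgeR adjusted p = 0.368). It was 2.37 without control replicate 1 and 7.39 without control replicate 2. Lyve1 encodes a hyaluronan receptor of perivascular macrophages and lymphatic endothelium. Its level was 8.06 and 0 CPM against 26.2 and 19.7 CPM (log2 fold change 2.51 ± 1.82, edgeR adjusted p = 0.703). Control replicate 1 held all 124 of its control reads, and without control replicate 2 the log2 fold change was 1.49.

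Pf4 encodes platelet factor 4, a chemokine that perivascular macrophages share with megakaryocytes. It was read at 0.130 and 0 CPM in control against 21.5 and 32.0 CPM in Brg1cKO libraries. These were 2 reads in the controls against 1460, a ratio of 453 with a counting interval from 125 to 3742 (edgeR adjusted p = 0.124). Markers of megakaryocytes and platelets were higher as well. Of 10 such genes, 8 were tested, all 8 were higher with no overlap and 5 at an unadjusted p under 0.05. Over all genes tested, 26.3% were higher with no overlap and 7.66% at an unadjusted p under 0.05. The median log2 fold change of the 8 was 3.55. Without a control read, 3 of the 8 passed the filter only through the Brg1cKO libraries, so they could only come out higher. The summed level of the 10 genes was 13.4 and 51.3 CPM in control against 178 and 225 CPM in Brg1cKO libraries. Plek, encoding pleckstrin, which other leukocytes also express, made up much of it, at 0.909 and 17.6 CPM against 102 and 131 CPM. Defining markers of the lineage were at 0 in both controls for 5 of the 10 genes and at 0 in all 4 libraries for none. Their part in the levels of Pf4 and F13a1 was not tested.

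Timd4 and Folr2 did not follow the other perivascular-type genes. Timd4 encodes TIM-4, a phosphatidylserine receptor of resident macrophages, and was read at 0.0650 and 8.81 CPM in control against 1.71 and 3.36 CPM in Brg1cKO libraries. The groups overlapped, and its log2 fold change of -0.81 ± 2.18 did not differ from 0 beyond its error (edgeR adjusted p = 0.943). Without control replicate 2, which held 166 of its 167 control reads, the log2 fold change was 5.16. Folr2, encoding folate receptor beta, was at 0 reads in all 4 libraries. Antisense Gm10602 shares 975 of its exonic bases, or 63.1%, and the strand setting of the counting is not given. If strand was not used, reads in the shared bases could not be told apart. No read was counted over the other exonic bases of Folr2 either. Gm10602 was read at 0.390 and 0.159 CPM in control against 1.02 and 0.694 CPM in Brg1cKO libraries.

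Cx3cr1 carried most of the microglia-type signal. It encodes the fractalkine receptor, which microglia keep at a high level and which many embryonic macrophages also express. It was read at 44.6 and 31.1 CPM in control against 165 and 159 CPM in Brg1cKO libraries. The log2 fold change was 2.10 ± 0.30 (edgeR adjusted p = 0.0900). The groups were well separated although the adjusted p missed the threshold. It was called in 6 of the 11 other settings.

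P2ry12 and Trem2 were read at low and uneven levels. P2ry12 encodes an ADP receptor of microglial processes, also made by platelets, and was read at 0 and 4.09 CPM in control against 10.6 and 12.7 CPM in Brg1cKO libraries (log2 fold change 2.50 ± 2.03, edgeR adjusted p = 0.745). Without control replicate 1 its log2 fold change was 1.51, and control replicate 2 held all of its control reads. Trem2 encodes a lipid-sensing receptor that signals through the adaptor TYROBP, and was read at 2.34 and 0 CPM against 2.02 and 17.5 CPM. Its groups overlapped and the 2 Brg1cKO libraries differed widely (log2 fold change 3.06 ± 2.31, edgeR adjusted p = 0.722). Its log2 fold change was 2.04 without control replicate 2 and 0.79 without Brg1cKO replicate 2.

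Among the growth factor receptors, the survival receptor Csf1r was read at 106 and 56.7 CPM in control against 298 and 289 CPM in Brg1cKO libraries. Its log2 fold change was 1.85 ± 0.31 (edgeR adjusted p = 0.121), and it was called in 8 of the 11 other settings. Hmgxb3, on the opposite strand, shares 15.1% of its exonic bases and was read at 46.9 and 44.4 CPM against 41.1 and 48.0 CPM, with overlapping groups. Csf2rb encodes the signalling beta chain shared by the receptors for GM-CSF, IL-3 and IL-5. It had no read in either control and 29.7 and 28.8 CPM in the Brg1cKO libraries, from 869 and 748 reads. Against 3 reads over both controls it was at least 337-fold higher (edgeR adjusted p = 0.0840). Its near-identical neighbour Csf2rb2 was read at 0 and 1.17 CPM against 3.996 and 5.01 CPM, and reads could be divided between the pair. Csf2ra, the alpha chain for GM-CSF, was read at 9.35 and 7.32 CPM against 20.6 and 26.8 CPM (log2 fold change 1.51 ± 0.73, edgeR adjusted p = 0.480). Csf3r, the G-CSF receptor of neutrophils and monocytes, overlapped between the groups at a log2 fold change of 0.61, which was -0.12 without control replicate 2.

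The 3 chains of complement C1q, which resident macrophages make to tag dying cells and debris, were each higher in both Brg1cKO libraries. Their genes stand side by side on chromosome 4, between C1qb at 136880129 and the end of C1qa at 136898803. Together they summed to 66.6 and 79.3 CPM in control against 281 and 276 CPM in Brg1cKO libraries. C1qa was read at 5.07 and 2.65 CPM against 59.7 and 45.8 CPM (log2 fold change 3.77 ± 0.62, edgeR adjusted p = 0.121). C1qb was read at 25.5 and 20.7 CPM against 116 and 102 CPM (log2 fold change 2.24 ± 0.34, edgeR adjusted p = 0.106). C1qc was read at 36.0 and 56.0 CPM against 105 and 128 CPM, the smallest difference of the 3 (log2 fold change 1.34 ± 0.34, edgeR adjusted p = 0.296). None passed the adjusted threshold, and all 3 were below an unadjusted 0.05.

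The chains assemble in equal numbers, and their levels per kilobase of exon were unequal in the controls. In mean CPM per kilobase, C1qa, C1qb and C1qc stood at 3.71, 21.2 and 23.8 in the controls and at 50.7, 100.03 and 60.4 in the Brg1cKO libraries. Ranked per kilobase among the 47, C1qb was at place 7 in the controls and place 1 in Brg1cKO, and C1qa at places 26 and 11. Apoe led the control ranking, at 69.6 CPM per kilobase, and stood at place 2 in Brg1cKO at 82.4. Mrc1 stood at place 15 in the controls, at 9.26, and at place 5 in Brg1cKO, at 64.4.

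The NADPH oxidase genes encode the enzyme with which phagocytes make superoxide. Cybb, its catalytic subunit, was read at 2.66 and 2.23 CPM in control against 27.8 and 29.6 CPM in Brg1cKO libraries (log2 fold change 3.55 ± 0.79, edgeR adjusted p = 0.228). Rac2, a small GTPase of blood cells that switches the enzyme on, was read at 11.4 and 11.9 CPM against 77.1 and 66.5 CPM (log2 fold change 2.62 ± 0.42, edgeR adjusted p = 0.121). Cyba, the partner subunit that many cell types express, was read at 10.7 and 20.5 CPM against 51.5 and 36.6 CPM (log2 fold change 1.496 ± 0.56, edgeR adjusted p = 0.368). The 3 genes were all higher at an unadjusted p under 0.05, with a median of 2.62, and none passed after adjustment.

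All 9 surface and lysosomal markers lay higher in both Brg1cKO libraries than in either control, 5 of them at an unadjusted p under 0.05, with a median log2 fold change of 1.65. Cd14, the co-receptor for bacterial lipopolysaccharide, had no control read and stood at 8.91 and 14.5 CPM in Brg1cKO, at least 132-fold higher against 3 reads over both controls (edgeR adjusted p = 0.249). Ly86, which encodes the MD-1 partner of a Toll-like receptor homologue, was read at 1.36 and 5.41 CPM against 35.8 and 41.8 CPM (log2 fold change 3.51 ± 0.85, edgeR adjusted p = 0.277). Unc93b1, which brings nucleic acid-sensing Toll-like receptors to endosomes, was read at 26.5 and 12.8 CPM against 72.6 and 77.8 CPM (log2 fold change 1.94 ± 0.47, edgeR adjusted p = 0.285). The other 6 were Lyz2, Mpeg1, Cd68, Adgre1, Aif1 and Cd86. Of these, Lyz2 (lysozyme) and Mpeg1 (perforin-2) had unadjusted p of 0.0162 and 0.0299. Cd68 and Adgre1, the usual CD68 and F4/80 stains for macrophages, had log2 fold changes of 0.62 and 1.22 with SE of 0.51 and 0.94. They are singled out here after their values were seen. In Adgre1 the controls were read at 3.18 and 25.4 CPM and the Brg1cKO libraries at 40.8 and 26.03 CPM. Its log2 fold change was 0.40 without control replicate 1 and 3.37 without control replicate 2.

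The general leukocyte membrane genes were higher too, with 5 of 5 positive and not overlapping, 2 at an unadjusted p under 0.05 and a median of 1.66. Ptprc, encoding the pan-leukocyte phosphatase CD45, was read at 9.03 and 21.8 CPM in control against 77.2 and 85.1 CPM in Brg1cKO libraries (log2 fold change 2.40 ± 0.52, edgeR adjusted p = 0.228). Laptm5, a lysosomal membrane protein of blood cells, was read at 51.8 and 74.8 CPM against 197 and 196 CPM (log2 fold change 1.64 ± 0.26, edgeR adjusted p = 0.121). Itgb2, the common beta chain of leukocyte integrins, was read at 3.05 and 9.497 CPM against 16.1 and 23.8 CPM (log2 fold change 1.66 ± 0.93, edgeR adjusted p = 0.573). Cd53 and Itgam completed the group, at log2 fold changes of 0.57 and 2.48 with SE of 0.67 and 1.76. Itgam, the CD11b chain, shares 68.7% of its exonic bases with Gm49368 on the same strand, so its count may be incomplete.

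Of 6 genes for Fc receptors and their signalling adaptors, 5 were tested, all positive, with 3 at an unadjusted p under 0.05 and a median of 1.53. Tyrobp encodes DAP12, the adaptor of TREM2 and other receptors, and was read at 5.39 and 2.60 CPM in control against 29.3 and 31.5 CPM in Brg1cKO libraries (log2 fold change 2.93 ± 0.77, edgeR adjusted p = 0.310). Fcgr3, a low-affinity receptor for IgG, was read at 12.9 and 29.7 CPM against 48.7 and 74.1 CPM (log2 fold change 1.53 ± 0.54, edgeR adjusted p = 0.368). Lyn, a Src-family kinase that acts below these receptors, was read at 31.7 and 42.6 CPM against 71.1 and 79.4 CPM (log2 fold change 1.02 ± 0.36, edgeR adjusted p = 0.368). Fcgr1 was higher without overlap and Fcer1g overlapped, at log2 fold changes of 1.87 and 0.71 with SE of 1.27 and 0.90. Without control replicate 1, the log2 fold change of Fcer1g was -0.14 and that of Fcgr1 5.56. Without control replicate 2 these log2 fold changes were 3.08 and 0.90. Fcgr2b, the inhibitory receptor, was not tested, and had 0 control reads and 13 and 129 reads in Brg1cKO replicates 1 and 2. The Fc receptor genes resemble each other, so reads could be divided among them.

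The 3 transcription factors differed in how well their controls matched. Spi1, encoding PU.1, was read at 6.76 and 24.9 CPM in control against 93.4 and 75.4 CPM in Brg1cKO libraries (log2 fold change 2.41 ± 0.63, edgeR adjusted p = 0.310). Runx1, needed for the first blood cells and also used by neurons, was read at 28.0 and 2.23 CPM against 39.7 and 38.0 CPM (log2 fold change 1.36 ± 1.02, edgeR adjusted p = 0.716). Its log2 fold change was 4.12 without control replicate 1 and 0.45 without control replicate 2. Irf8, a partner of PU.1, was read at 30.2 and 0.159 CPM against 26.8 and 24.95 CPM (log2 fold change 0.77 ± 1.56, edgeR adjusted p = 0.922). Control replicate 1 thus held more Irf8 than either Brg1cKO library, while control replicate 2 held 3 reads. Without control replicate 2 the log2 fold change was -0.24, and without control replicate 1 it was 7.31.

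Apoe and Tgfbi, which many cells secrete, differed least between the groups. Apoe, the lipid carrier of macrophages and glia, was read at 184 and 113 CPM in control against 208 and 144 CPM in Brg1cKO libraries, with overlapping groups (log2 fold change 0.24 ± 0.30, edgeR adjusted p = 0.851). Tgfbi, a matrix protein of macrophages and mesenchyme, was read at 180 and 161 CPM against 223 and 181 CPM (log2 fold change 0.25 ± 0.20, edgeR adjusted p = 0.747). Their 95% confidence intervals reached up to 0.95 and 0.72, below the median of the 45 genes tested. The log2 fold change of Apoe was -0.086 without control replicate 2 and -0.041 without Brg1cKO replicate 1.

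The control libraries differed from each other in more macrophage genes than the Brg1cKO libraries did. With 0.1 CPM added, 13 of the 45 genes tested (28.9%) differed by over 4-fold between the 2 controls, and over all genes tested the share was 25.4%. In Brg1cKO only Trem2 did (2.22%), against 10.3% of all genes tested. The 13 were Adgre1, Aif1, Fcer1g, Fcgr1, Csf3r, Lyve1, F13a1, Timd4, Trem2, P2ry12, Irf8, Runx1 and Cd86, and control replicate 1 was the higher in 7 of them. The median gap between replicates on the log2 scale was 0.97 in the controls and 0.25 in Brg1cKO, beside 0.81 and 0.39 over all genes tested. Of the 47 members, 41 and 39 had a read in the controls and 46 in each Brg1cKO library. Mrc1, Dab2, Csf2rb and Cx3cr1 had adjusted p under 0.10, and none of these 4 was among the 13. Leaving out a control moved the fold change of 22 of the 45 by over 1.5 times, and leaving out a Brg1cKO library that of 1, Trem2. None of the same 4 was among the 22. A small p in this test itself needs replicates that agree, so neither absence is separate support for these 4 genes.

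**Figure D3:**
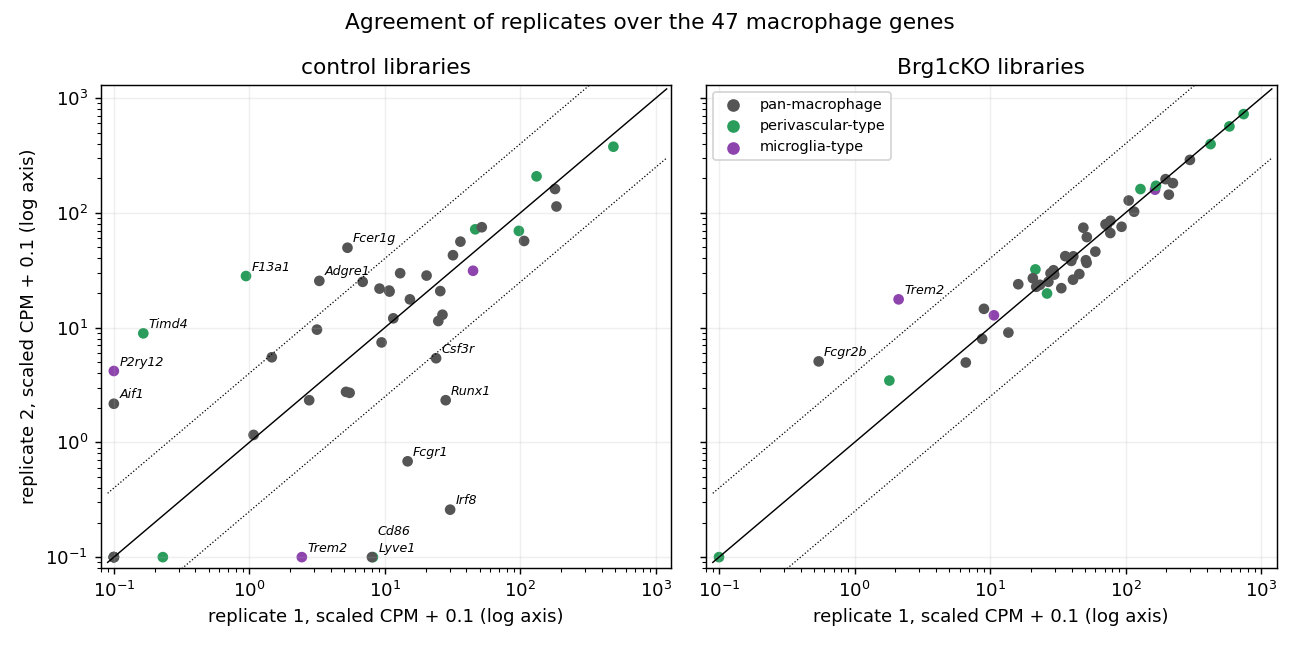
Replicate 2 against replicate 1 for each of the 47 macrophage genes, as scaled CPM + 0.1 on log axes, in the controls and in Brg1cKO. Outside the lines of a 4-fold difference lie 13 genes in the controls and, in Brg1cKO, Trem2 and Fcgr2b, which was not tested.

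To see which macrophage genes stood apart from the shared difference in level, each was set against Csf1r of the same library. Of the 44 others tested, 10 were higher in both Brg1cKO libraries than in both controls on this scale, where 6.60% of all genes tested were. They were Mrc1, Tyrobp, Cx3cr1, C1qa, Cd14, Cybb, Ly86, Rac2, Csf2rb and Pf4. Cd68, Lyn, Cd53, Csf3r, Stab1, Maf, Tgfbi and Apoe, 8 of the 44, were lower in both, as were 66.9% of all genes tested. For every 100 CPM of Csf1r, C1qa stood at 4.76 and 4.68 CPM in control against 20.02 and 15.9 CPM in Brg1cKO libraries, so it was higher in Brg1cKO on this scale as well. Mrc1 stood at 43.5 and 126 CPM against 142 and 137 CPM, where control replicate 2 came close to the Brg1cKO libraries. Cx3cr1 stood at 41.9 and 54.9 CPM against 55.3 and 55.02 CPM, nearly the same in 3 of the 4 libraries. Dab2 stood at 124 and 366 CPM against 196 and 196 CPM, with the controls on both sides. Stab1 and Maf went the other way, at 456 and 664 CPM against 249 and 251 CPM for Stab1, and at 91.5 and 122 CPM against 56.2 and 59.5 CPM for Maf. These ratios carry the error of Csf1r, whose controls differed by 0.91 on the log2 scale.

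Lists of related genes outside the 47 showed how far the pattern reached. Of 14 leukocyte signalling genes, 13 were tested, all were positive and 7 were higher at an unadjusted p under 0.05, with a median of 1.39. Btk and Dock2, a kinase and a Rac activator of blood cells, were read at 0.390 and 1.49 CPM against 30.1 and 27.2 CPM, and at 3.25 and 2.60 CPM against 63.6 and 28.8 CPM. Of 12 macrophage transcription factors, 7 were positive, 3 higher at an unadjusted p under 0.05, with a median of 0.21. Irf5, which drives inflammatory genes in macrophages, was read at 1.43 and 4.14 CPM against 57.1 and 44.5 CPM (log2 fold change 4.18 ± 0.73, edgeR adjusted p = 0.128). Of 14 resident macrophage and engulfment genes, 10 were tested, 9 were positive and 3 higher at an unadjusted p under 0.05, with a median of 1.07. Gas6, a ligand that bridges dying cells to MERTK and AXL, was read at 21.6 and 36.8 CPM against 89.4 and 73.9 CPM.

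Further markers of the subtypes were mixed. Of 12 further perivascular and border macrophage genes, 7 were tested, 6 were positive and 3 higher at an unadjusted p under 0.05, with a median of 0.62. They summed to 115 and 63.0 CPM in control against 121 and 134 CPM in Brg1cKO libraries, most of it from Igf1, a growth factor that mesenchyme also makes. Fcna and Clec10a had no control read and stood at 2.87 and 8.56 CPM, and at 1.67 and 4.24 CPM, in Brg1cKO. The genes Cd163, Cd209f and Mgl2 were at 0 in all 4 libraries, and are named after their values were seen. Of 10 further microglia genes, 10 were tested, 7 were positive and 3 higher at an unadjusted p under 0.05, with a median of 0.48. Fcrls, a microglial Fc receptor-like gene, was read at 14.4 and 6.37 CPM against 50.5 and 55.5 CPM (log2 fold change 2.35 ± 0.58, edgeR adjusted p = 0.285). Sall1, a factor of microglial identity that other embryonic tissues also express, was read at 44.6 and 95.8 CPM against 42.1 and 53.8 CPM. Tmem119, chosen after its values were seen, was read at 22.9 and 17.7 CPM against 19.8 and 25.7 CPM. For Sall1 and Tmem119 the groups overlapped.

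The signals that macrophages receive were read in the same libraries. Cx3cl1, the ligand of CX3CR1, was read at 48.3 and 68.2 CPM in control against 21.3 and 19.1 CPM in Brg1cKO libraries, lower in both (log2 fold change -1.53 ± 0.44, edgeR adjusted p = 0.347). Tgfb1 was read at 126 and 129 CPM against 206 and 184 CPM (log2 fold change 0.61 ± 0.20, edgeR adjusted p = 0.368). The CSF1R ligands, named after their values were seen, gave 5.26 and 51.7 CPM against 31.1 and 22.0 CPM for Csf1, with overlap, and 0 and 0 CPM against 0.990 and 1.43 CPM for Il34.

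Markers of other blood cells were read beside the macrophage genes. Of 10 neutrophil genes, S100a8, S100a9, Ltf, Camp, Ly6g and Retnlg were at 0 in all 4 libraries. Mpo, the myeloperoxidase of early myeloid cells, was read at 7.15 and 41.4 CPM in control against 132 and 97.6 CPM in Brg1cKO libraries (edgeR adjusted p = 0.368). Of 10 dendritic cell and antigen presentation genes, H2-Aa, H2-Eb1, Xcr1, Itgax and Ciita were at 0 in all 4 libraries, and the list summed to 27.5 and 39.1 CPM against 37.5 and 57.6 CPM. Of that list 5 were tested, 4 were positive, 3 were higher with no overlap and 1 at an unadjusted p under 0.05, with a median of 0.48. Flt3, a growth factor receptor of dendritic cells and progenitors, had no control read and stood at 2.22 and 1.93 CPM in Brg1cKO, and H2-Ab1 was read at 0.195 and 0.849 CPM against 1.43 and 6.56 CPM. Of 10 monocyte genes, 5 were tested, 4 were positive, 3 were higher with no overlap and 2 at an unadjusted p under 0.05, with a median of 0.70. They summed to 2577 and 2134 CPM against 3821 and 3654 CPM, nearly all from Fn1 and Vcan, the 2 with the smallest p, which encode matrix proteins that mesenchyme also makes. The monocyte marker Ly6c2 was at 0 in 3 libraries and at 0.307 CPM in Brg1cKO replicate 1. The genes at 0 and Ly6c2 were named after their values were seen. Of 12 lymphocyte genes, 6 were tested, 5 were higher with no overlap, 2 at an unadjusted p under 0.05, and 1 was negative. Their median log2 fold change was 4.80, or 4.05 with the 1 gene that had no control read set at its lower bound. It rests on low levels, since the 12 genes summed to 10.3 and 9.13 CPM against 20.4 and 16.4 CPM. Red blood cell genes went the other way, with 8 of 10 negative, a median of -1.45 and sums of 623 and 664 CPM against 227 and 215 CPM. Endothelial genes, which bear on Stab1, Lyve1 and Mrc1, had 10 of 14 positive, 3 higher and 1 lower at an unadjusted p under 0.05, and a median of 0.13. They summed to 3473 and 3146 CPM in control against 3776 and 3709 CPM in Brg1cKO libraries, a ratio of 1.13. The otic epithelium genes had 0 of 14 positive, 8 lower at an unadjusted p under 0.05 and a median of -1.99. The part that the makeup of the sorted cells had in the macrophage levels was not tested.

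**Figure D4:**
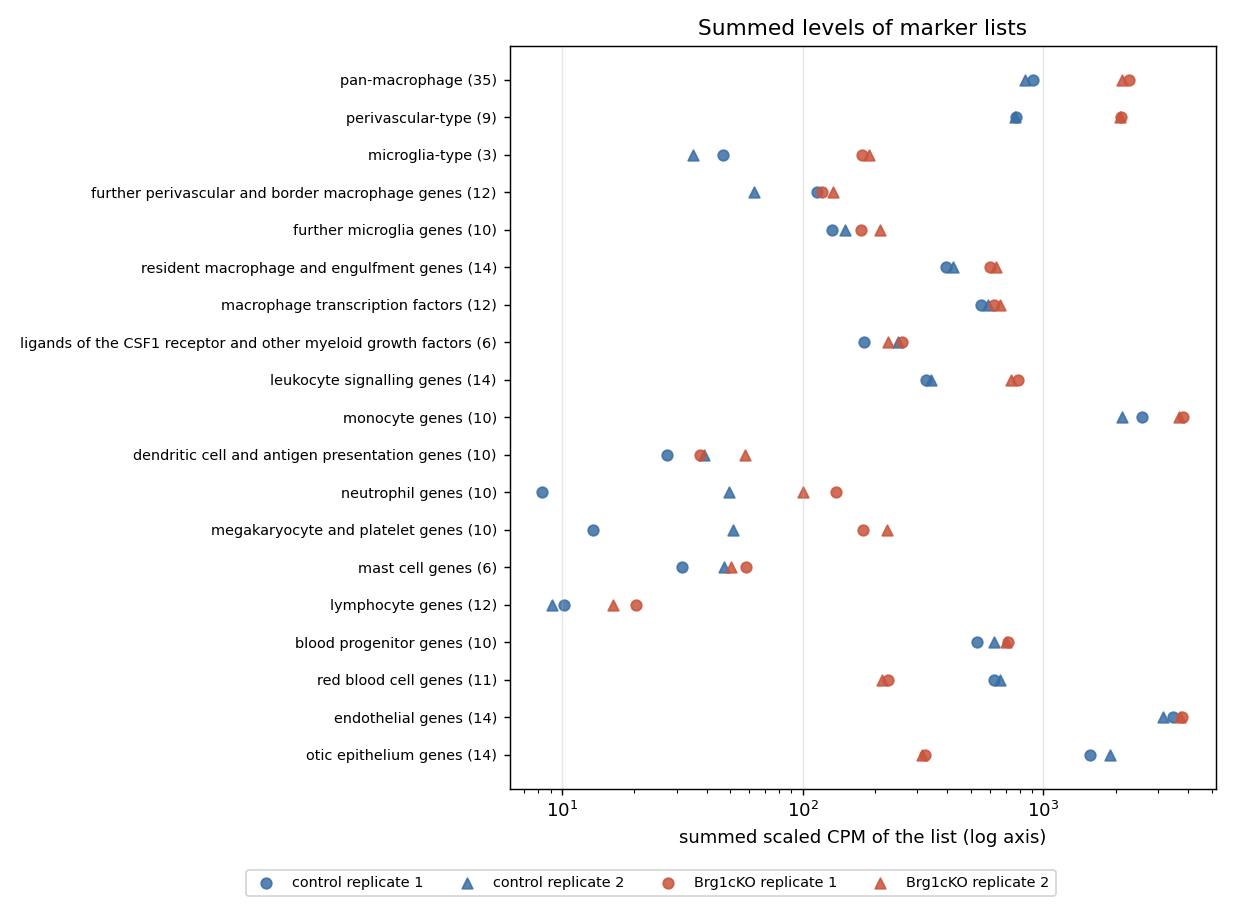
Summed scaled CPM on a log axis of the 3 types of macrophage marker and of 16 lists of related genes and other cell types, in each of the 4 libraries (number of genes in brackets). The 3 macrophage types lie higher in both Brg1cKO libraries than in both controls, as do most of the other lists, endothelial genes included at a ratio of 1.13. Red blood cell and otic epithelium genes lie lower, and the lists of growth factors and of dendritic cell genes overlap.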

How the data were processed

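The files deposited by the authors hold raw counts, whole numbers for each Ensembl gene identifier and library that were not normalized. The submitters' processing notes name mm10, HISAT2, HTSeq and DESeq2, without versions or roles. The counting's strand setting and annotation were not given in the sources used. Lines that name no gene (records outside genes, ambiguous, not aligned or not uniquely aligned) were left out throughout. They made up 51.8% and 50.7% of records in the controls and 36.0% and 36.3% in Brg1cKO.

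Symbols and positions came from GENCODE M21 (mm10), which matched 52489 of 52636 identifiers. The counts were fitted with edgeR 4.0.16 in R 4.3.3, with filterByExpr at a minimum count of 10, TMM scaling, and a robust quasi-likelihood F-test of group over all 4 libraries. Calls were made at a Benjamini-Hochberg adjusted p under 0.05 over all 16557 genes, and the p-values of members come from that fit. Scaled CPM is computed on the TMM-scaled library totals. A gene at 0 in both controls has a fold as a lower bound against 3 reads over the group, which covers counting error only, since the reads carry no molecular identifiers. The script was tested on simulated counts. Alternatives were other scalings, filters, DESeq2 1.42.0, a newer edgeR moderation, a block for replicate number, and leaving out each library. Values in every library are given for called members, for up to 3 members of each role with the smallest p, for all perivascular-type and microglia-type members, and for members with a negative fold change. Of other lists, up to 2 genes with the highest CPM and 2 with the smallest p may be named. The members, lists and tests were chosen with earlier results of these data known. A single gene of a related list is not reported here.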

Additional observations from a re-analysis of the deposited data

How the results depend on the processing

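All genes called numbered 5 in the reported fit, 417 with no filter beyond 1 count, 10 with a minimum count of 50, 2422 with DESeq2, 70 with the newer edgeR moderation, and 33 to 3519 with 1 library left out. Macrophage genes called numbered 1, and 19, 1, 26, 7 and 4 to 32 in those settings. With the replicate block, 140 genes and 13 macrophage genes were called. The medians were then 2.12 for all members, 1.97 for pan-macrophage, 2.31 for perivascular-type and 4.23 for microglia-type members. Over all genes tested, same-numbered libraries did not deviate together from their group means (correlation of deviations -0.0053). This cannot exclude that they share a litter or a sort, which is unstated. With 1 library left out, members higher at an unadjusted p under 0.05 ranged from 17 to 36, the median of all members from 1.78 to 2.20, the pan-macrophage median from 1.69 to 2.07 and the microglia-type median from 2.04 to 2.64. The share of all genes higher at an unadjusted p under 0.05 was far larger without a control than without a Brg1cKO library. The range in the count of members therefore cannot be read as a result about the members alone. The perivascular-type median ranged from 1.92 to 2.62 with 1 library left out. Timd4 had a log2 fold change of 1.36 with the block and -1.79 to 5.16 with 1 library left out. Leaving out 1 library gave -0.14 to 3.08 for Fcer1g, -0.12 to 2.07 for Csf3r, -0.24 to 7.31 for Irf8 and -0.086 to 0.64 for Apoe (-0.041 without Brg1cKO replicate 1). With no reversal under the other 2 scalings, the direction of each member was kept there, and all-gene medians were -0.01 (RLE) and 0.07 (upper quartile). The cause of these changes was not tested. Sets of genes called were not compared between settings. Pf4 rests on 2 control reads.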
